A study of Mus musculus with 8 samples.

Results

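Inhibitory receptors are surface proteins that dampen the response of T and NK cells to their targets, and Tox is a nuclear protein that accompanies their expression in T cells exposed to antigen for a long time. The genes described here are Pdcd1, Havcr2, Ctla4, Cd160 and Tox, which make up 5 of the 2000 genes in the deposited table and were chosen by name. They were followed in 6 classes of immune cell, gated by marker genes, in tumours grown from Hepa1-6, an established mouse hepatoma cell line. The labels give 4 groups of tumours: unedited cells with intraperitoneal PBS, unedited cells with intraperitoneal PD1 antibody, and Soat1-edited cells with either injection. Edited tumours are KO in the entry titles but a knockdown under genotype, and how the editing was done is not given. Host strain, age and number of animals are not given in the sources used here. The 53528 cells of the table carry a number from 1 to 6 in their names, and nothing ties these 6 sets to the 4 groups. The table was therefore treated as 1 pooled sample, the sets are unassigned samples, and no value below compares genotypes or treatments.

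Pdcd1 encodes PD-1, the receptor for PD-L1 (Cd274) and PD-L2, and it is the target of the antibody given to part of these animals. Havcr2 encodes TIM-3, found on T cells and on myeloid cells, with galectin-9 (Lgals9) among its reported ligands. Ctla4 competes with the costimulator Cd28 for CD80 and CD86 (Cd86) and is kept at a high level by regulatory T cells. Cd160 is anchored in the membrane by a lipid, binds the herpesvirus entry mediator and is known from NK cells and cytotoxic T cells. Tox is a transcription factor of the HMG-box family that is needed for exhausted CD8 T cells to persist.

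Upstream sequence was found for 4 of the 5 genes, all but Tox, in a RefSeq promoter table of build GRCm38.p6. The 250 bases before the gene start are shown for 3 receptors chosen for their different patterns across cell classes below, on the gene's own strand and 5′ to 3′. Capitals mark every match to GGAAA, the core letters bound by NFAT, a factor switched on by the T cell receptor, on either strand. Pdcd1 lies at chr1:94052554-94052803 on the minus strand, Havcr2 at chr11:46454681-46454930 on the plus strand and Ctla4 at chr1:60908775-60909024 on the plus strand.
Pdcd1: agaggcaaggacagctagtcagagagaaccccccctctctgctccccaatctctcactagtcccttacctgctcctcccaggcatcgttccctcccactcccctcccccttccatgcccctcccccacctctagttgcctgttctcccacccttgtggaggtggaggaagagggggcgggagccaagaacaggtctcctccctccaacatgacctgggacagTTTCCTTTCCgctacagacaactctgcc
Havcr2: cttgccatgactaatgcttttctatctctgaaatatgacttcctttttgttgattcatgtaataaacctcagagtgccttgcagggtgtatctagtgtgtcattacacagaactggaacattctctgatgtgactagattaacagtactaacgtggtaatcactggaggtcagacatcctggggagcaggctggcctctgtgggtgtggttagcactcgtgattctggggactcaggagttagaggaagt
Ctla4: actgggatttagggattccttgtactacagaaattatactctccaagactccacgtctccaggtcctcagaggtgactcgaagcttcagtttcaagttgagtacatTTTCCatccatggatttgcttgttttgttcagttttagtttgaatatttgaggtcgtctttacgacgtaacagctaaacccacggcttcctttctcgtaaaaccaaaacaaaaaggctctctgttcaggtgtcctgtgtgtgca
The Pdcd1 window held 2 matches, next to each other and close to the gene start. Ctla4 held 1 match and Havcr2 held 0. GGAAA is common: 55.6% of all 32851 windows of this length held it. Of the 5 other motifs searched on both strands, AP-1 (TGANTCA, in 6.75% of windows) and RUNX (TGTGGT, in 14%) each had 1 match in Havcr2 and 0 in Pdcd1 and Ctla4. The E-box (CANNTG, in 66.2%) had 1 match in Ctla4 and 0 in the other windows shown, and TATAAA (in 12.4%) and the NR4A site AAAGGTCA (in 1.34%) had 0 in all 3. These matches describe letters and were not tested against the expression values.

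The classes were gated on deposited values above 0.5, so their gate genes are not results. Over all sets the gates held 9849 CD8 T, 713 CD4 T, 280 regulatory T, 348 NK, 4400 macrophage and 468 dendritic cells, 16058 in all, beside 28543 hepatoma cells. Whole UMI counts (unique molecules) could be recovered only for set 1, with 1001 to 261833 UMIs per cell. Set 1 held 1035 CD8 T, 56 CD4 T, 34 regulatory T, 38 NK, 648 macrophage and 70 dendritic cells, with median depths of 2864 to 5060 UMIs. Its 6455 hepatoma cells had a median of 16643 UMIs and stand for cells that should lack the 5 genes. Levels are given in CPM, the summed UMIs of a gene per 1000000 UMIs of the class. The hepatoma gene Afp was found in every class. It was at 2397 CPM in NK, 1574 CPM in dendritic and 1035 CPM in macrophage cells. The T classes had 428 to 510 CPM, and hepatoma cells 5034 CPM. CPM was not corrected for hepatoma RNA, which may lower the levels of the classes to unlike degrees, and its part in the ratios was not tested. Each interval is a 95% interval for counting error alone. With 1 sample there is no replicate check, and no p-value was computed. Levels are compared between classes for each gene, never between genes, since the values are not per length.

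Pdcd1 was highest in CD8 T cells of set 1, followed by CD4 T and regulatory T cells and lay at 13 CPM or less in the other immune classes. It had 5514 UMIs in CD8 T cells, or 808 CPM (787 to 830). CD4 T cells had 624 CPM (540 to 718) and regulatory T cells 169 CPM (119 to 234). The ratio of CD8 T to CD4 T cells was 1.29 (1.12 to 1.5), and that of CD8 T to regulatory T cells was 4.77 (3.44 to 6.82). Regulatory T cells thus carried much less Pdcd1 than both other T classes, at 0.271 (0.184 to 0.388) of the CD4 T level. NK cells had no Pdcd1 UMI in 38 cells, so CD8 T cells were at least 40-fold higher, counting 3 UMIs as the floor of the whole NK class. Macrophages had 13 CPM, dendritic cells 7.54 CPM and hepatoma cells 4.45 CPM.

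Tox followed the same order among T cells but with shallower steps. It reached 311 CPM (298 to 325) in CD8 T, 220 CPM (171 to 278) in CD4 T and 165 CPM (115 to 229) in regulatory T cells. The CD8 T level was 1.42 times (1.11 to 1.83) that of CD4 T cells, while CD4 T and regulatory T cells could not be told apart, with a ratio of regulatory to CD4 T cells of 0.749 (0.484 to 1.14). NK cells held 7 UMIs of Tox in 7 cells, or 47.1 CPM (18.9 to 97.1), which was 5.51 times (2.21 to 11.4) the hepatoma level. Dendritic cells, at 7.54 CPM, were no different from hepatoma cells at 8.55 CPM within counting error (ratio 0.882, 0.182 to 2.58).

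Ctla4 had the opposite order among T cells. Regulatory T cells had 2961 CPM (2734 to 3202), CD4 T cells 1417 CPM (1289 to 1555) and CD8 T cells 623 CPM (605 to 642), and the 3 intervals did not overlap. All 34 regulatory T cells held a Ctla4 UMI. CD8 T cells carried 0.44 times (0.399 to 0.486) the CD4 T level and 0.211 times (0.194 to 0.229) the regulatory T level. The CD4 T gate asks for no Foxp3 above 0.5, so it may hold regulatory T cells whose Foxp3 was missed. Foxp3 had 69 UMIs in the 34 gated regulatory T cells, and 38.2% of them held one at 1000 UMIs. The part of such cells in the CD4 T levels of Ctla4, Pdcd1 and Tox was not tested. Levels outside T cells were 74.1 CPM (37 to 133) in NK, 32.7 CPM (17.4 to 55.9) in dendritic cells, 22.5 CPM (17.2 to 29.1) in macrophages and 16.6 CPM (16 to 17.3) in hepatoma cells.

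Havcr2 was the only one of the 5 genes for which no pair of T classes could be separated in set 1. Its level was 207 CPM (196 to 218) in CD8 T, 201 CPM (154 to 257) in CD4 T and 160 CPM (111 to 223) in regulatory T cells, with ratios of CD8 T cells to the others of 1.03 (0.8 to 1.35) and 1.29 (0.921 to 1.88). It was also the gene with the clearest signal in myeloid cells. Dendritic cells had 72.9 CPM (48.8 to 105) and macrophages 46.2 CPM (38.4 to 55.2), which were 22.4 times (14.8 to 32.6) and 14.2 times (11.5 to 17.4) the hepatoma level of 3.25 CPM. NK cells, at 40.4 CPM (14.8 to 87.9) from 6 UMIs, could not be told from macrophages or dendritic cells.

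Cd160 was found in CD8 T and NK cells and was close to absent elsewhere. CD8 T cells had 94.5 CPM (87.4 to 102) and NK cells 87.5 CPM (46.6 to 150) from 13 UMIs, a ratio of 1.08 (0.627 to 2.04). With each cell weighted equally, the levels were 106 CPM in CD8 T and 145 CPM in NK cells. Neither CD4 T nor regulatory T nor dendritic cells of set 1 held a UMI, which allows up to 11.7, 17.3 and 9.28 CPM. CD8 T cells were at least 9.89-fold higher than CD4 T cells and at least 6.7-fold higher than regulatory T cells, each class counted at a floor of 3 UMIs. Macrophages had 1.91 CPM (0.62 to 4.46) from 5 UMIs, within counting error of the 0.622 CPM in hepatoma cells.

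**Figure D1:**
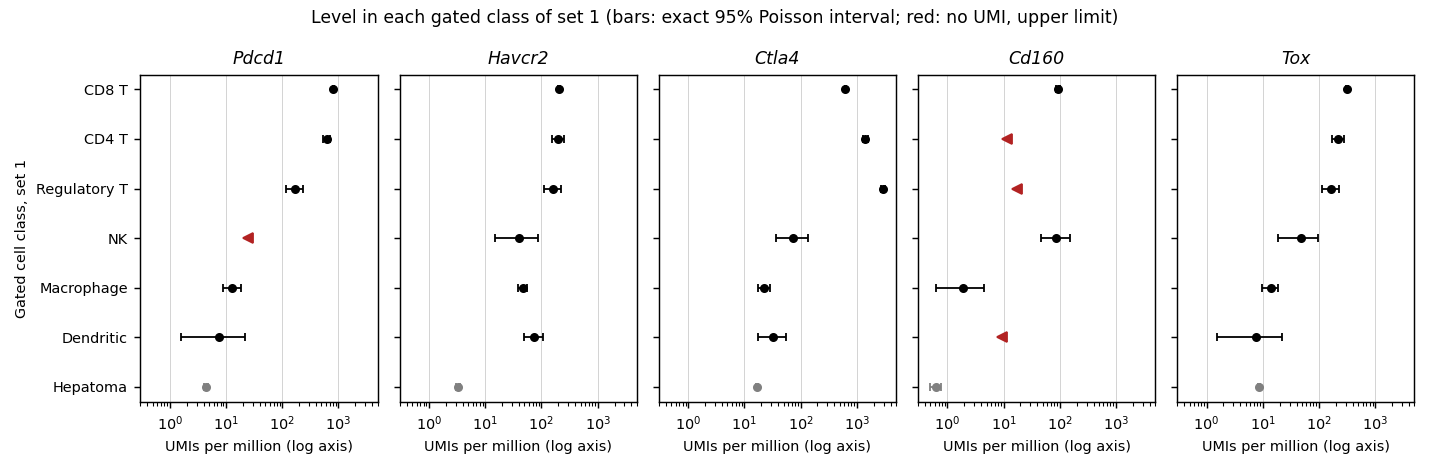
Level of each gene in CPM (log axis) in the 6 immune classes and the hepatoma cells of set 1, with exact 95% Poisson intervals; red triangles mark classes with no UMI, at their upper limit. Pdcd1 and Tox are highest in CD8 T cells, at 808 and 311, Ctla4 peaks in regulatory T cells at 2961, and Havcr2 keeps 46.2 to 72.9 in macrophages and dendritic cells.

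A level at least 2-fold apart was counted as a difference between classes, among genes with 10 or more UMIs in both classes together. Against CD4 T cells, 1 of the 5 genes (Cd160) was higher in CD8 T cells, as were 26.6% of 1240 genes tested, and 1 (Ctla4) was lower, as were 13.4% of them. Against regulatory T cells, 2 (Pdcd1 and Cd160) were higher where 28.8% of 1235 genes were, and 1 (Ctla4) was lower where 16.7% were. Against NK cells 4 of 5, all but Cd160, were higher, beside 30.2% of all genes. All 5 were higher than in macrophages (24.5% of genes), dendritic cells (28.1%) and hepatoma cells (26.3%). Read against these shares, the counts among T cells were near those of the table, and those against non-T cells were above them. Some of these calls rest on the gate. The Havcr2 ratio of CD8 T to dendritic cells was 2.84 (1.97 to 4.25), or 1.49 on the log2 scale, and became 0.93 when the markers of a lineage were pooled, which is under 2-fold. For Cd160 against NK cells the log2 ratio was 0.11, and 1.08 at a gate threshold of 0.25.

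Counted against hepatoma cells, NK cells held 4 of the 5 genes at 2-fold or more, all but Pdcd1, beside 22.4% of genes tested. Macrophages held 3 of 5 (Pdcd1, Havcr2 and Cd160, the last from 5 UMIs) beside 32.6% of genes, and dendritic cells held 1 (Havcr2) beside 23.5%. RNA of T cell marker genes was present in these classes too. NK cells held the 14 T marker genes of the table at 0% to 59% of their CD8 T level (median 12.2%, sum 1124 CPM against 6594 CPM), with 3 at 0, among them Cd3d and Cd3g, which the NK gate leaves out, and some of these genes are also expressed by NK cells. Ctla4 (11.9% of its CD8 T level), Tox (15.1%) and Havcr2 (19.5%) in NK cells lay inside that range and Cd160, at 92.6%, lay above it. The macrophage gene C1qa stood at 390 CPM in NK cells, from 58 UMIs in 5 of 38 cells. In macrophages all 14 were detected, at 1.26% to 6.57% of their CD8 T level, with a sum of 150 CPM. Pdcd1 (1.61% of its CD8 T level), Cd160 (2.02%), Ctla4 (3.62%) and Tox (4.42%) in macrophages lay inside that range, and Havcr2, at 22.4%, lay above it. Hepatoma cells held the same marker genes at 0.67% to 2.89% of the CD8 T level, and all 5 genes here lay at 0.551% to 2.75%.

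The dendritic gate allowed no T marker gene above 0.5, so low values of these genes there do not measure stray T cell RNA. In dendritic cells 10 of the 14 T marker genes had no UMI. The highest stood at 2.84% of its CD8 T level, and the 14 summed to 12.6 CPM. Havcr2 in these cells was at 35.3% of its CD8 T level. Ctla4 was at 5.24%, from 13 UMIs in 10 of 70 cells, and Cd8a, which the conventional dendritic cells that take up dying cells also express, was at 4.62%. The part of stray T cell RNA in these values was not tested.

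Shares of cells with a UMI depend on depth and are given at own depth and after thinning. At their own depth, 90% (88% to 91.7%) of CD8 T cells held a Pdcd1 UMI, 79.8% Ctla4, 66.9% Tox, 54.3% Havcr2 and 34.6% Cd160. In hepatoma cells, with a median of 16643 UMIs against 5060 in CD8 T cells, these shares were 8.06%, 27%, 14.4%, 6.72% and 1.32%. With each cell thinned to 1000 UMIs, which left out no cell of set 1, the CD8 T shares were 55.1%, 42.4%, 26.9%, 18.4% and 8.02%, and the hepatoma shares 0.527%, 1.92%, 1.04%, 0.635% and 0.093%. At 2000 UMIs the CD4 T share of Havcr2 (34.1% of 41 cells) exceeded the CD8 T share (30.5% of 876), as did the NK share of Cd160 (19.2% of 26 cells against 16.9%), both within counting error. Macrophages at 1000 UMIs held Havcr2 in 4.63% (3.15% to 6.54%) of cells. Their Ctla4 share of 1.39% (0.637% to 2.62%) and their Tox and Pdcd1 shares of 1.08% each (0.435% to 2.21%) had intervals that overlapped those of the hepatoma shares. In CPM at own depth macrophages were above hepatoma cells for all 3, by 2.92 times (2 to 4.12) for Pdcd1, 1.61 times (1.12 to 2.24) for Tox and 1.35 times (1.03 to 1.75) for Ctla4, and the part of stray T cell RNA in this was not tested.

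The 6 sets showed most of this order. Values of sets 2 to 6 were changed by an unrecorded step before deposit. Whether that step drew the sets closer together is not known, so they are not counted as independent repeats of set 1. On the deposited natural log scale, the mean of Pdcd1 in CD8 T cells ran from 1.77 to 1.99 (median 1.84) over the 6 sets and in CD4 T cells from 1.46 to 1.72 (median 1.53), and these ranges did not overlap. Regulatory T cells lay at 0.60 to 0.91. Tox spanned 0.95 to 1.09 (median 1.04) in CD8 T, 0.72 to 0.91 (median 0.81) in CD4 T and 0.44 to 0.63 (median 0.57) in regulatory T cells, again without overlap. The step from CD4 T to regulatory T cells that set 1 alone could not resolve was thus present in the means. By share of cells above 0.5 the Tox ranges overlapped, at 46.3% to 52.5% in CD4 T and 34% to 50% in regulatory T cells. Set 2 had 46.6% in CD4 T against 50% in regulatory T cells. In set 4 the CD8 T share (51.1%) was below the CD4 T share (52.5%). Ctla4 ran from 2.94 to 3.55 in regulatory T, 1.69 to 2.08 in CD4 T and 1.43 to 1.63 in CD8 T cells.

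Havcr2 ranged from 0.68 to 0.77 (median 0.72) in CD8 T, 0.35 to 0.72 (median 0.58) in CD4 T and 0.27 to 0.65 (median 0.59) in regulatory T cells. CD8 T cells were above CD4 T cells in 6 of 6 sets, by 0.05 to 0.33, although the ranges overlapped. CD4 T cells of set 1 were the highest of their class for this gene and those of set 5 the lowest. Dendritic cells spanned 0.11 (set 4) to 0.46 (set 6), the widest spread of any class outside T cells, and macrophages 0.12 to 0.23.

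Cd160 lay between 0.32 and 0.48 (median 0.42) in CD8 T cells and between 0.19 and 0.45 (median 0.35) in NK cells. CD8 T cells were above NK cells in 5 of 6 sets, with a difference of -0.02 to 0.21. CD4 T cells ranged from 0.00 to 0.12 and regulatory T cells from -0.05 to 0.00, so the absence of Cd160 UMIs from CD4 T cells of set 1 was not matched by values at 0 in every other set.

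Over all 5 genes, CD8 T cells had the higher mean than CD4 T cells in all 6 sets for 4 genes, as did 16.6% of the 2000 genes, and the lower mean in all 6 for Ctla4, as did 11.5%. Against regulatory T cells 4 were higher in all sets, beside 18% of genes, and against NK cells 4, all but Cd160, beside 20.3%. By share of cells above 0.5, the genes higher in all sets numbered 3 against CD4 T, 4 against regulatory T and 5 against NK cells.

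**Figure D2:**
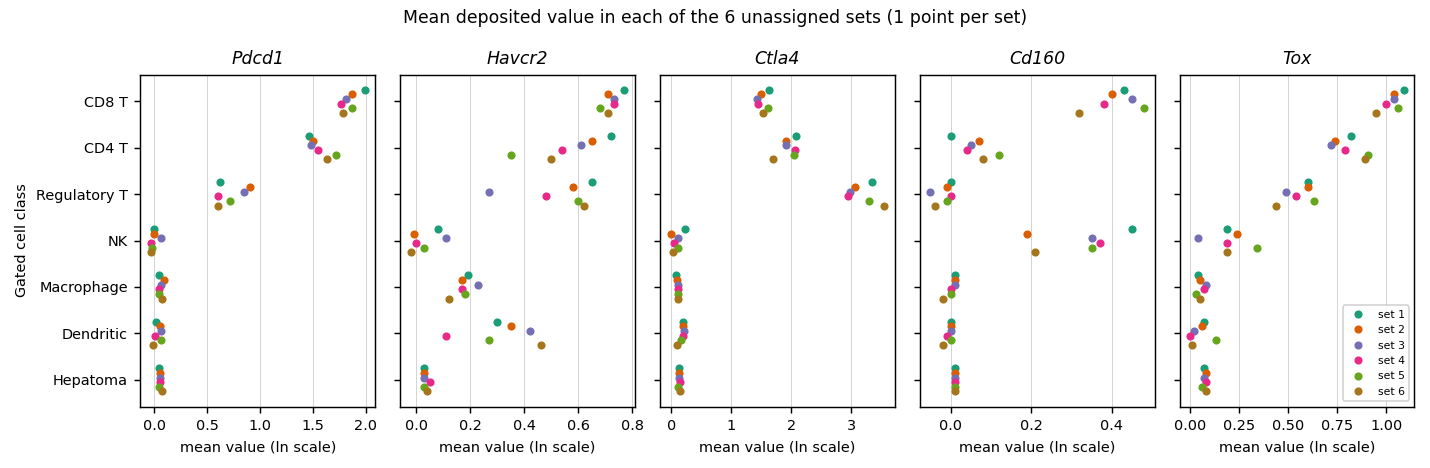
Mean deposited value (natural log scale) of each gene in each gated class, with 1 point for each of the 6 unassigned sets. The Pdcd1 and Tox points of CD8 T cells lie above all CD4 T points, the Ctla4 points of regulatory T cells lie between 2.94 and 3.55, and Cd160 points of CD8 T and NK cells overlap.

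Dendritic cells are a mixed class, and Havcr2 was uneven within it. The gate was split by marker after the class values were seen: Xcr1 or Clec9a marks conventional dendritic cells that cross-present antigen, Cd209a marks another conventional type, and Ccr7 marks mature migrating cells. In set 1, 31 cells with Xcr1 or Clec9a held 16 Havcr2 UMIs, or 89.4 CPM (51.1 to 145), and 11 cells with Cd209a held 10, or 156 CPM (74.9 to 287). The 18 cells with Ccr7 held none, which allows up to 32.5 CPM. Across the 6 sets the mean of Havcr2 was 0.26 to 0.83 (median 0.45) in the 179 Xcr1 or Clec9a cells and -0.04 to 0.12 (median 0.02) in the 149 Ccr7 cells, and the ranges did not overlap. Cd209a cells ran from -0.05 to 0.67, with 5 to 21 cells per set. Ctla4 spanned 0.08 to 0.33 in Xcr1 or Clec9a cells and -0.06 to 0.18 in Ccr7 cells, so the groups overlapped, and Pdcd1, Cd160 and Tox stayed at or below 0.22 in all 3.

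**Figure D3:**
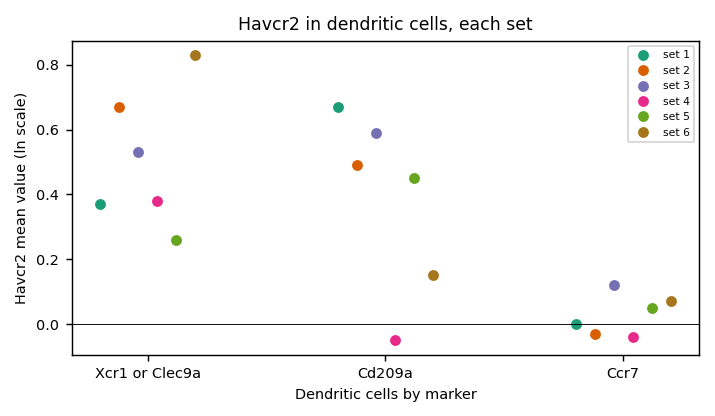
Mean Havcr2 value (natural log scale) in dendritic cells split by marker, 1 point per set. Points of Xcr1 or Clec9a cells lie at 0.26 to 0.83 and those of Ccr7 cells at -0.04 to 0.12.

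Ligands and partner receptors were compared as lists chosen by name. Of 11 ligands 5 were in the table and 4 could be tested. Cd274, which encodes the PD-1 ligand PD-L1, was at 34.6 CPM in CD8 T, 139 CPM in macrophages and 191 CPM in dendritic cells. Cd86, a ligand of CTLA-4, was at 14.8, 155 and 123 CPM in the same classes. Lgals9 did not differ, at 37.9 CPM in CD8 T cells, 35.5 CPM in macrophages and 32.7 CPM in dendritic cells, with ratios of 1.07 (0.84 to 1.37) and 1.16 (0.667 to 2.21). Receptor and ligand thus had opposite orders between CD8 T and myeloid cells for PD-1 and CTLA-4, and Lgals9 showed no such order.

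Other inhibitory receptors were counted in the same way. Of 16 on the list 6 were in the table, and between CD8 T and CD4 T cells 1 was at least 2-fold higher (Klrc1, which encodes NKG2A) and 4 were lower (Btla, Klrg1, Cd200 and Lair1, the last from 3 UMIs in CD4 T cells with an interval that includes 1), beside 26.6% and 13.4% of all genes tested. The 5 genes had 1 and 1, and the lists were not tested against each other. Klrc1 stood at 504 CPM against 137 CPM, and Btla at 13.6 CPM against 51 CPM. As a median log2 ratio, the list stood at -1.33, beside 0.15 over all genes tested and 0.37 over the 5 genes. Of 7 costimulators, Icos, Tnfrsf4 and Tnfrsf18 were lower in CD8 T cells and Cd226 was higher, while Cd28 was within counting error (1.07, 0.857 to 1.36). Of the 11 transcription factors tested, 3 were higher (Eomes, Nr4a2 and Ikzf3) and 1 was lower (Ikzf2), which is about the share of all genes, 26.6% higher and 13.4% lower.

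Single CD8 T cells of set 1 were then read for pairs of the 5 genes. At 2000 UMIs per cell, which kept 876 of 1035 cells, Pdcd1 was detected in 77.7%, Ctla4 in 61.8%, Tox in 43.3%, Havcr2 in 30.5% and Cd160 in 16.9%. Each pair was compared with the product of its 2 shares, the value for genes detected independently. Pdcd1 and Ctla4 were found together in 50% (46.6% to 53.4%) of cells against a product of 48%, and Pdcd1 and Havcr2 in 24.7% (21.8% to 27.7%) against 23.7%. Havcr2 and Tox shared 11.4% (9.39% to 13.7%) of cells against 13.2%, and Havcr2 and Cd160 4.34% (3.09% to 5.91%) against 5.15%. Of the 10 pairs 4 lay above the product, as did 50.5% of 65341 pairs of genes detected in at least 10% of these cells. The ratios ran from 0.842 to 1.04, and the interval of each, which covers the error of the joint share alone, included 1. Joint and single shares come from the same cells, which these intervals ignore. They therefore cannot decide whether a pair departs from the product. A ratio cannot exceed 1 divided by the larger single share, so pairs with Pdcd1 have little room above 1. The phi coefficient was 0.10 for Pdcd1 and Ctla4 and -0.08 for Havcr2 and Tox, the ends of the range at 2000 UMIs.

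This reading changed with the depth used. At the cells' own depth all 10 pairs lay above the product, with ratios of 1.03 to 1.14. Thinned to 1000 UMIs, with all 1035 cells kept, 6 of 10 lay above it. Cd160 and Tox were at 0.937 (0.721 to 1.19) at 2000 UMIs, 1.48 (1.02 to 2.07) at 1000 UMIs, from 33 cells with both, and 1.14 (1.03 to 1.27) at own depth. Havcr2 and Tox were at 0.866, 1.16 and 1.09. The 2 equal depths thus put these pairs on different sides of the product, and no order of the pairs is read from them. At 2000 UMIs, 1000 UMIs and own depth, Pdcd1 and Ctla4 stayed above it (1.04, 1.06 and 1.04). So did Pdcd1 and Tox (1.01, 1.04 and 1.05) and Havcr2 and Ctla4 (1.02, 1.08 and 1.07). Every other pair changed side. The number of the 5 genes detected per cell moved the same way. At 2000 UMIs, 3.42% of cells held none and 0.799% held all 5, beside 2.79% and 1.07% for independent genes. At own depth 2.13% held none and 15.1% held all 5, beside 0.201% and 9.01%.

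**Figure D4:**
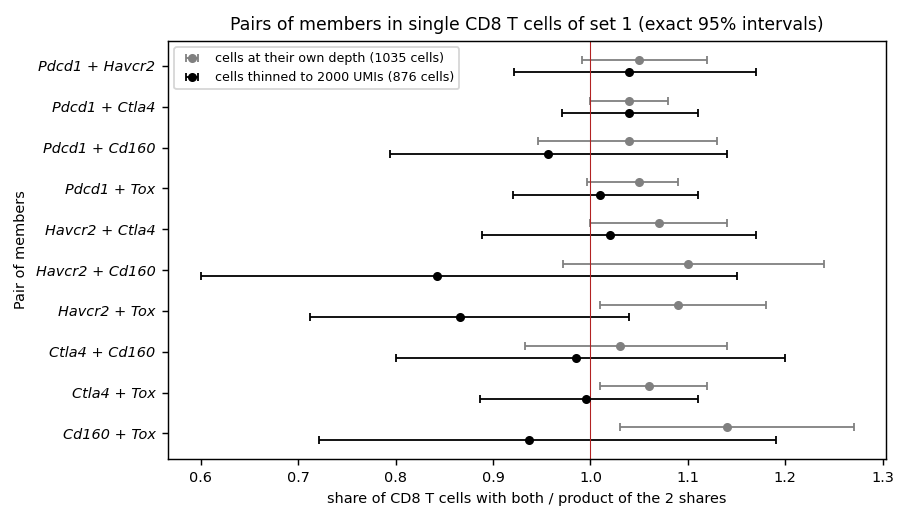
Share of CD8 T cells of set 1 with both genes of a pair, divided by the product of the single shares, with exact 95% intervals; grey points are cells at their own depth and black points cells thinned to 2000 UMIs. All 10 grey points lie above 1, and every black interval includes 1. The intervals cover the joint share alone and cannot decide whether a pair departs from the product.

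Correlations over cells are given as descriptions, since they carry each cell's depth. Pearson's r of Pdcd1 and Ctla4 was 0.12 to 0.22 (median 0.16) over the 6 sets, that of Pdcd1 and Tox 0.09 to 0.20, and that of Pdcd1 and Havcr2 0.05 to 0.20. Havcr2 and Cd160 lay at -0.08 to 0.01, and Ctla4 and Cd160 at -0.09 to 0.01. All of these values are weak.

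Havcr2 differed more than the other 4 genes with the summed level of Gzma, Gzmb and Gzmk. CD8 T cells of set 1 were ranked by the summed UMIs of Gzma, Gzmb and Gzmk per cell total, cytotoxic proteases of the granules, and cut into 3 bins of 345 cells. Havcr2 was at 132 CPM (116 to 150) in the low, 193 CPM (176 to 211) in the middle and 271 CPM (252 to 292) in the high bin, a ratio of high to low of 2.05 (1.77 to 2.38). Tox was at 336 CPM (309 to 364) in the low and 257 CPM (238 to 278) in the high bin, a ratio of 0.767 (0.686 to 0.858). Pdcd1 (0.923, 0.863 to 0.988) and Ctla4 (1.12, 1.04 to 1.22) differed little, and for Cd160 the interval of 0.839 (0.687 to 1.02) included 1. Havcr2 was the 1 gene of the 5 past 2-fold, beside 5.28% of 1118 genes tested.

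The bins differed in depth, with medians of 3350, 5894 and 5433 UMIs. At 2000 UMIs per cell Havcr2 was at 163 CPM in the low and 282 CPM in the high bin, a ratio of 1.73 and so under 2-fold, and Tox at 382 and 260 CPM. In the 6 sets, the high bin exceeded the low bin for Havcr2 in 6 of 6, by 0.29 to 0.50 on the deposited scale, and for Tox and Cd160 in 0 of 6, by -0.20 to -0.07 and -0.17 to -0.01. Ctla4 was higher in 6 of 6 sets by 0.03 to 0.18. Pdcd1 was higher in 5 of 6 sets, at -0.07 to 0.10, although its CPM was lower in the high bin of set 1.

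**Figure D5:**
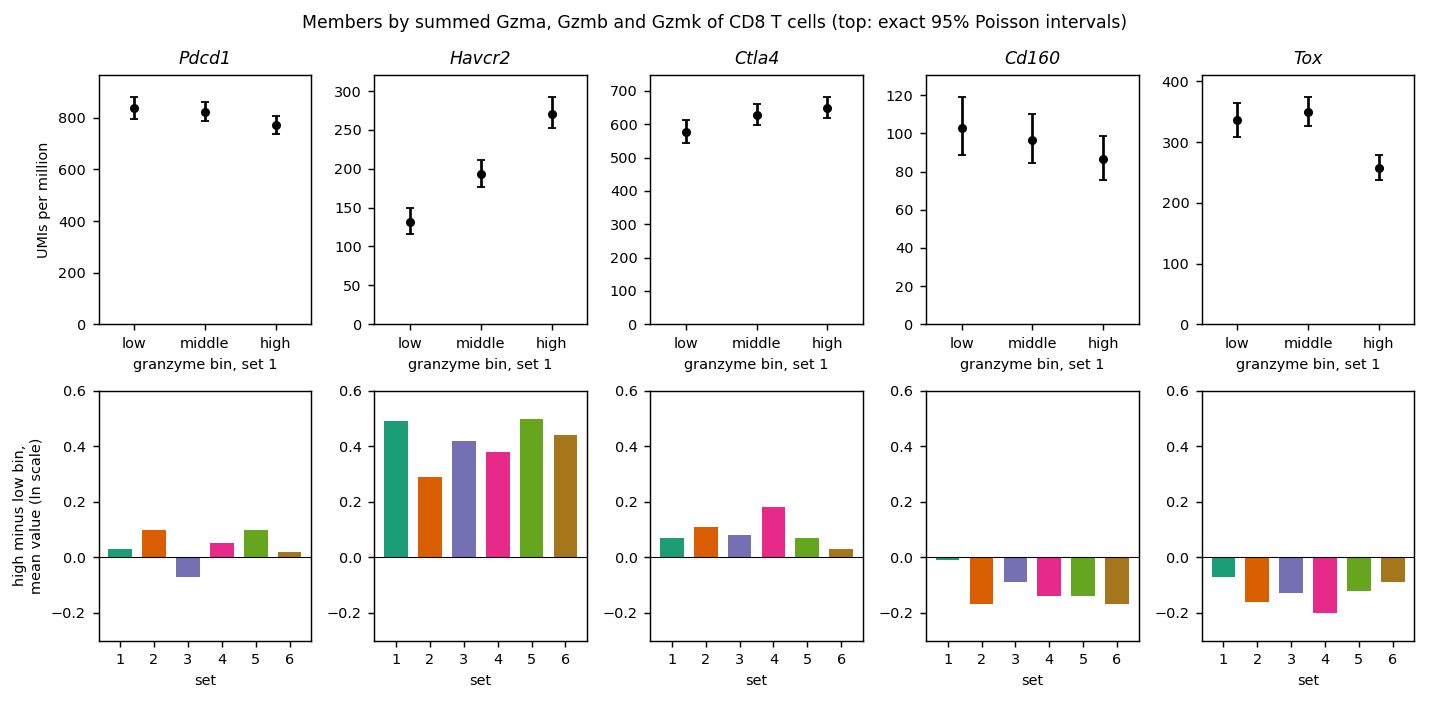
Top, level of each gene (CPM, exact 95% Poisson intervals) in CD8 T cells of set 1 in the low, middle and high bin of summed Gzma, Gzmb and Gzmk. Bottom, high minus low bin of the mean deposited value (natural log scale) in each set: Havcr2 is above 0 in all 6 sets and Tox and Cd160 are below 0 in all 6.

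Other genes of the lists differed with granzyme level too. Ccr7, a homing receptor of naive and memory T cells, was in the high bin at 0.023 times (0.00912 to 0.0481) its low-bin level, and Xcl1, a chemokine of progenitor-like CD8 T cells, at 0.174 times (0.151 to 0.199). Btla (0.272), Cd200 (0.406) and Il7r (0.513) were also lower, and Klrg1 was higher (2.16, 1.16 to 4.28). The share of all genes at least 2-fold lower in the high bin was not counted, so these lower levels are not read as particular to the lists. Split by Xcl1 itself at 2000 UMIs, 164 CD8 T cells with a UMI held 0.529 times (0.374 to 0.729) the Havcr2 of 712 cells without, while Tox (1, 0.805 to 1.23), Pdcd1 (1.07, 0.938 to 1.21) and Cd160 (1.3, 0.893 to 1.85) had intervals that included 1. The 59 cells with Il7r held Havcr2 at 1.04 times (0.675 to 1.54) the level of the rest.

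Granzymes C to G gave a different split. Of CD8 T cells 86.9% had no UMI of Gzmc, Gzmd, Gzme, Gzmf or Gzmg, so 136 cells with any were compared with 899 without. Havcr2 was higher in cells with any, 263 against 190 CPM (ratio 1.38, 1.23 to 1.55). Tox was lower, 198 against 346 CPM (0.573, 0.506 to 0.646), as were Pdcd1 (0.795), Ctla4 (0.859) and Cd160 (0.814, 0.666 to 0.99). None of the 5 was 2-fold higher, beside 5.67% of 1216 genes. Median depth was 8074 UMIs in cells with any and 4570 in those without. On the deposited scale the Havcr2 difference between these cells was 0.38 and that of Tox -0.25. In sets 2 to 6, where zero counts cannot be told, CD8 T cells were cut into 3 bins of equal size by the same granzymes instead. There the high minus low difference of Havcr2 was smaller, from -0.07 (set 4) to 0.13 (set 6), and that of Tox was -0.25 to -0.04. Havcr2 was lowest in the middle bin in each of sets 2 to 6. Its low, middle and high means were 0.83, 0.59 and 0.76 in set 4 and 0.76, 0.47 and 0.89 in set 6. What orders cells between the low and middle bins was not tested, so the smaller difference is not read as a weaker relation.

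By cell cycle, 849 of 1035 CD8 T cells had 2 or more of 27 cell-cycle genes above 0.5. All 5 genes had a lower CPM in these cells, with ratios of 0.618 (0.481 to 0.805) for Cd160, 0.728 (0.628 to 0.848) for Tox, 0.782 (0.712 to 0.86) for Pdcd1, 0.823 (0.738 to 0.921) for Ctla4 and 0.921 (0.754 to 1.13) for Havcr2. None was 2-fold higher, beside 23.7% of 1216 genes tested. Depth differed widely, with medians of 5931 UMIs in these cells and 2108 in the rest. On the deposited scale the direction was the opposite for most: Pdcd1, Ctla4 and Havcr2 were higher in the cycling side in 6 of 6 sets and Tox in 5 of 6. With cells thinned to 2000 UMIs and sorted again, Pdcd1 was at 847 (798 to 898) against 1005 CPM (913 to 1103). Ctla4 was at 669 against 703 CPM and Havcr2 at 214 against 242 CPM, both with overlapping intervals, while Tox was at 340 against 309 CPM. In 3 bins by summed cell-cycle UMIs, all 5 had a lower CPM in the high bin. Pdcd1, Ctla4 and Havcr2 were thus lower in each CPM reading, and only the deposited scale, where cells were not thinned, had them higher. No direction by cell cycle held across both scales for these genes, and for Tox the CPM readings differed too. Cd160 was lower at 2000 UMIs too (95.6 against 120 CPM), and in the sets it lay at -0.06 to 0.02.

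CD8 T cells with 4 or 5 of the genes were set beside those with 0 or 1 at 2000 UMIs, a split made after the pairs were seen, with 93 and 182 cells. The 5 genes define the split and are left aside. Batf, a transcription factor of activated T cells, was at 102 against 44 CPM (ratio 2.32, 1.13 to 4.83). Nr4a3 (2, 1.32 to 3.02) and Nr4a2 (1.6, 1.33 to 1.92), which respond to T cell receptor signals, Ikzf3 (2, 1.3 to 3.07) and the costimulator Cd28 (2, 1.47 to 2.73) were higher too. Klf2, which keeps T cells circulating, was at 108 against 234 CPM (0.46, 0.268 to 0.756). Of 640 genes tested, 5.16% were at least 2-fold higher and 8.91% at least 2-fold lower. Of the 11 transcription factors, 1 was past 2-fold higher (Batf), 1 lower (Klf2) and 9 were within 2-fold, among them Nr4a3, Nr4a2 and Ikzf3. Of the 7 costimulators, 1 (Cd28) was higher and 6 were within 2-fold. Of the granzymes, Gzme was past 2-fold from 11 and 4 UMIs (5.38, 1.59 to 23.2), and Gzma (1.55, 1.06 to 2.25) and Gzmb (1.24, 1.02 to 1.5) were under it. None of the 27 cell-cycle genes of the list was past 2-fold, with ratios of 0.534 (Ccnb2) to 1.27 (Mcm5) whose intervals all included 1. Outside the list and picked after their values were seen, the proliferation genes Prc1 (0.399), Pclaf (0.416), Gmnn (0.594) and Hmgb2 (0.636) were lower.

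Across the 36 means of 6 classes in 6 sets, the genes most like each of the 5 were taken by Pearson's r, as a description over points that share libraries and gates. Pdcd1 was followed by Tox, Rgs16 and Cxcr6, each at 0.97, and Tox by Trbc2 (0.98), Rgs16 and Pdcd1. Trbc2 is a gate gene for T cells. Ctla4 was followed by Ltb (0.98), Cd2 and Tnfrsf9, of which Cd2 is a gate gene for T cells. Cd160 was closest to Klrd1, Ctsw and Klrk1 (each 0.92), genes of NK and cytotoxic cells. Havcr2 had the loosest neighbours, S100a4 (0.88), Gapdh and Cd3d (each 0.85), of which Cd3d is a gate gene too.

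Within the 1035 CD8 T cells of set 1, among 614 genes detected in at least 10% of them, Havcr2 was closest to Prf1 (r 0.33, and 0.26 to 0.33 in sets 2 to 6), which encodes perforin, then Gzmb (0.29) and the chemokine Ccl3 (0.22). Pdcd1 was closest to Nr4a2 (0.23), Ctla4 (0.21) and Il2rb (0.19), and Tox to Nr4a2 and Itga4 (each 0.18) and Ubash3b (0.15). Ctla4 went with Tnfaip3 (0.29), Rgs2 and Rgs1. Cd160 was closest to Xcl1 (0.19, and 0.14 to 0.22 in the other sets), then Il2rg and Gapdh, whose values in the other sets were -0.01 to 0.05.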

How the data were processed

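Droplet-based 3′ single-cell RNA libraries of dissociated tumours were made on the DNBelab C4 system, per the labels' protocols. The 4 groups have a cDNA and an oligo entry each, 8 entries in all. Per the submitters' processing notes, STAR 2.7.2b was used and the builds GRCh38 and mm10 are named; which build the table used is not given in the sources used here. The deposited table holds natural log (ln) values of 2000 genes in 53528 cells. In set 1 these are exactly the natural log of 1 plus UMIs per 10000 UMIs of the cell, and the UMI total was recovered for 100% of its cells, with every nonzero value whole within 0.01. In sets 2 to 6 every cell has values below 0, from an unrecorded step, so no counts were recovered from them. All 53528 columns map to no sample. Names without the set number are running numbers, of which 12741 of 22421 occur in more than 1 set, so barcodes shared between libraries could not be counted.

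Cells were gated at a value above 0.5 with their own lineage leading (each marker scaled to its 99th percentile), and 8927 cells fell in no gate. Doublets were called with Scrublet in scanpy 1.11.5 (91 of 9370 cells of set 1, 0.971%) and kept. Summed UMIs have exact Poisson, ratios exact conditional, and shares exact Clopper-Pearson intervals at 95%. The floor is 3 counts. Thinning used 1000 or 2000 UMIs and seed 1. Ratios and thinning were tested on simulated data. Python 3.11.15, numpy 2.4.6 and scipy 1.17.1 were used.

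Genes named are the 5, their 3 nearest genes by Pearson's r, and the related lists; some list genes are absent from the 2000. Members and lists were chosen with earlier results of these data known. Chosen after values of this work were seen were the use of each lineage's best marker list, the removal of 28 cells passing 2 immune gates, the split of Gzmc to Gzmg into any or no UMI, the dendritic split, the splits by Xcl1 and Il7r, the split by number of genes detected, the 6 motifs, and Havcr2 as the granzyme result followed through the alternatives. Gate thresholds, lineage rules, depth, doublets, pseudocounts and bins were varied.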

Additional observations from a re-analysis of the deposited data

Results flagged for a closer look

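The mean of each gene in each immune class over the 6 sets was checked for 1 set far from the rest, in 30 series. One was found, where chance alone gives about 1 in 20: the mean of Cd160 in macrophages was -0.02 in set 6 (881 cells) and 0.00 to 0.01 in the other 5 sets, all close to 0 on the natural log scale.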

How the results depend on the processing

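Whether CD8 T cells rank first depended on weighting, depth and gate. By summed UMIs they were highest for 4 of the 5 genes, but for 2 as a mean over cells, where Havcr2 was 228 CPM in CD4 T against 212 in CD8 T cells and Cd160 145 in NK against 106 in CD8 T cells, and for 3 at a gate threshold of 1 (Cd160 123 in NK against 92.7) and with pooled lineage markers (Havcr2 212 in CD4 T against 207). By share of cells they led for 4 genes at own depth and at 1000 UMIs and for 2 at 2000 UMIs. Pairs above the product numbered 4 at 2000 UMIs, 6 at 1000 and 10 at own depth. The Havcr2 ratio of high to low granzyme was 2.05, and 1.38 for any Gzmc to Gzmg UMI, 1.73 with 2 bins and 1.73 at 2000 UMIs, so its call at 2-fold ended while its direction stayed; the Ctla4 ratio reversed from 1.12 to 0.859 for Gzmc to Gzmg, both intervals excluding 1. On the log2 scale, the Havcr2 ratio of CD8 T to dendritic cells went from 1.49 to 0.93 when a lineage's markers were pooled, below 2-fold, and that of Cd160 to NK cells from 0.11 to 1.08 at a gate threshold of 0.25, above it. Of 210 levels under other gates, without doublets or as a mean over cells, 39 moved past their interval. Part of the 210 could not move. No doublet was called in CD4 T, regulatory T, NK or dendritic cells, and the hepatoma gate held 6455 cells at each threshold. Of 175 log2 ratios 12 moved past it, and of 20 granzyme ratios 8, beside the 1 reversed. All 10 CD8 T shares moved with thinning. Another 4 log2 ratios whose interval included no difference changed sign: Havcr2 of CD8 T to CD4 T (0.04) to -0.10 with cells weighted equally and -0.04 with pooled markers, and Cd160 of CD8 T to NK (0.11) to -0.46 with cells weighted equally and -0.40 at a threshold of 1. The cause of these shifts was not tested. Pooled lineages, doublet removal, other gates for the ratios and thinned granzyme bins were chosen after seeing the data. Small classes limit CD4 T, regulatory T, NK and dendritic values (34 to 70 cells in set 1). No paired analysis was possible because no cell is tied to a sample.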
